A study of Mus musculus with 4 samples.

Results

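The 29 genes examined here encode the RAS signalling pathway and the JAK-STAT pathway, and were taken as a named list of genes out of 21887 protein-coding genes. A variant counted for a gene when it lay between the start and end of that gene in the GRCm38.p6 gene table, and all 29 symbols were found there. The samples were 4 exomes of c-Kit-positive leukaemia cells from bone marrow of moribund mice on a C57BL/6 background. All 4 carried the label E2-KO, which stands for an Nras-G12D allele together with knockout of Ezh2, a histone methyltransferase of the Polycomb group. The sources used here do not give age, the Cre driver or the number of animals behind each sample. The 4 samples form 1 group, named replicates 1 to 4 in the order of their listing, with no control group and no normal tissue of the same animals. No variant can therefore be called acquired, and exome calls do not show the surface marker used for the sort.

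RAS proteins are small GTPases that signal while bound to GTP. Guanine nucleotide exchange factors such as Sos1 load them with GTP, GTPase-activating proteins such as neurofibromin (Nf1) switch them off, and active RAS engages the kinases Braf, Map2k1 and Map2k2. Cytokine receptors signal through Janus kinases, which phosphorylate STAT transcription factors and also feed the RAS pathway through Ptpn11. Activating changes in RAS genes, loss of Nf1 or Cbl, and activating changes in JAK kinases or receptors are known recurrent events of myeloid leukaemia, which is why further changes beside the engineered Nras allele were sought.

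A confident variant was a single-nucleotide variant (SNV) or an insertion or deletion (indel) that both deposited callers, SpeedSeq and VarScan2, listed at the same position with the same alleles. In both callers it had to reach a depth of 10 reads, 3 variant reads and an allele fraction of 10%, and SpeedSeq had to score its quality at 20 or more. VarScan2 listed nothing under 20%, so its working minimum was 20% and the 10% acted in SpeedSeq alone. The samples held 18624 to 29708 confident SNVs with a median depth of 47 to 55 reads and 2801 to 3692 confident indels. Replicate 3 stood apart in its allele fractions over the whole genome. Its SNVs at 65% or more, called upper-range here (the homozygous range), had a median of 80.3%, against 100% in each of the other 3 samples. Its lower-range SNVs had a median of 37.9%, against 45.3% to 46.2% elsewhere. The cause was not tested, and each value of replicate 3 below is to be read beside these levels.

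Across the 29 genes there were 25 confident calls at 14 sites in 8 genes, namely Nras, Nf1, Rit1, Csf1r, Cblb, Il7r, Jak1 and Tyk2. The remaining 21 genes held no confident variant in any sample. Replicate 1 had calls in 3 of the 29 genes (10.3%), where 14.7% of all protein-coding genes had one. The other shares were 4 genes in replicate 2 (13.8%, against 14.5%), 6 in replicate 3 (20.7%, against 14.5%) and 4 in replicate 4 (13.8%, against 10.7%). The mean was 4.25 ± 1.26 genes per sample (SD, n = 4). Over the samples together 27.6% of the members had a confident variant, against 23.7% of all protein-coding genes, and 13.8% against 17.4% had a confident SNV. These shares lay near the background, and they say nothing particular about the pathway. Each member share includes Nras, the gene engineered in every sample by the label. The members were also longer, with a median of 46.9 kb against 17.2 kb. The files list variant sites only, so a gene with no call cannot be told apart from a gene whose sites were not covered. Variants under 20% in VarScan2 could not pass, so a lack of confident calls does not cover them.

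Most indels lay in simple repeats. Of the 8 indel sites, 7 lay in a tract of at least 10 bases made of 1 repeated base or base pair, whereas 39.6% of all 6984 confident indel sites of the 4 samples did. The haplotypes below are printed because they show the repeat in which each length change was called and the single insertion that lay in none. They are given on the plus strand of mm10 as the SpeedSeq files wrote them, with the repeated tract, or for Jak1 the inserted bases, in capitals.
Nf1 indel 1, reference, chr11:79412647-79412688: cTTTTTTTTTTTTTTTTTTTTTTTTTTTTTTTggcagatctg
Nf1 indel 1, deletion: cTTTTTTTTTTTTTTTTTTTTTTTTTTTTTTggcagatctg
Nf1 indel 1, insertion: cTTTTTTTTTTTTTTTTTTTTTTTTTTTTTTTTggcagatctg
Nf1 indel 2, reference, chr11:79451897-79451921: cTTTTTTTTTTTTTaactttatctg
Nf1 indel 2, deletion: cTTTTTTTTTTTTaactttatctg
Nf1 indel 3, reference, chr11:79537158-79537187: cTTTTTTTTTTTTTTTTTaattaaattcac
Nf1 indel 3, deletion: cTTTTTTTTTTTTTTTTaattaaattcac
Cblb, reference, chr16:52189189-52189213: aGGGGGGGGGGGGGacggggctgga
Cblb, deletion: aGGGGGGGGGGGGacggggctgga
Tyk2, reference, chr9:21115599-21115616: aCCCCCCCCCCCCCaggt
Tyk2, deletion: aCCCCCCCCCCCCaggt
Jak1, reference, chr4:101163638-101163640: cca
Jak1, insertion: cCAGCCATCCTCTTca
The runs held 31, 13 and 17 T in Nf1, 13 G in Cblb and 13 C in Tyk2, and each variant haplotype was longer or shorter by 1 base. The Il7r deletion removed 1 copy of GA from a tract of 22 copies. None of the 8 indels was a multiple of 3 bases long. Whether any of them lies in an exon was not determined, because the gene table gives gene bodies without exons.

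Among the RAS family GTPases, Nras carried the same SNV in all 4 samples and Rit1 carried 2 SNVs in replicates 1 and 2, while Hras and Rras held none. The Nras change, G to A at position 103058956 of chromosome 3 (mm10), lies 671 bases inside the gene, which runs from 103058285 to 103067914 on the plus strand. Glycine codons become aspartate codons by G-to-A changes, and which codon this position belongs to was not read. The variant made up 107 of 224 reads in replicate 1 (47.8%, exact 95% interval 41.1 to 54.5) and 69 of 152 in replicate 2 (45.4%, 37.3 to 53.7). It made up 65 of 209 reads in replicate 3 (31.1%, 24.9 to 37.9) and 91 of 213 in replicate 4 (42.7%, 36.0 to 49.7). Replicate 3 was lowest, and its interval did not overlap that of replicate 1. Variant reads came from both strands in every sample, with 56 forward and 51 reverse in replicate 1. All intervals are Clopper-Pearson intervals. They hold counting error alone, as several reads can stem from 1 molecule.

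**Figure D1:**
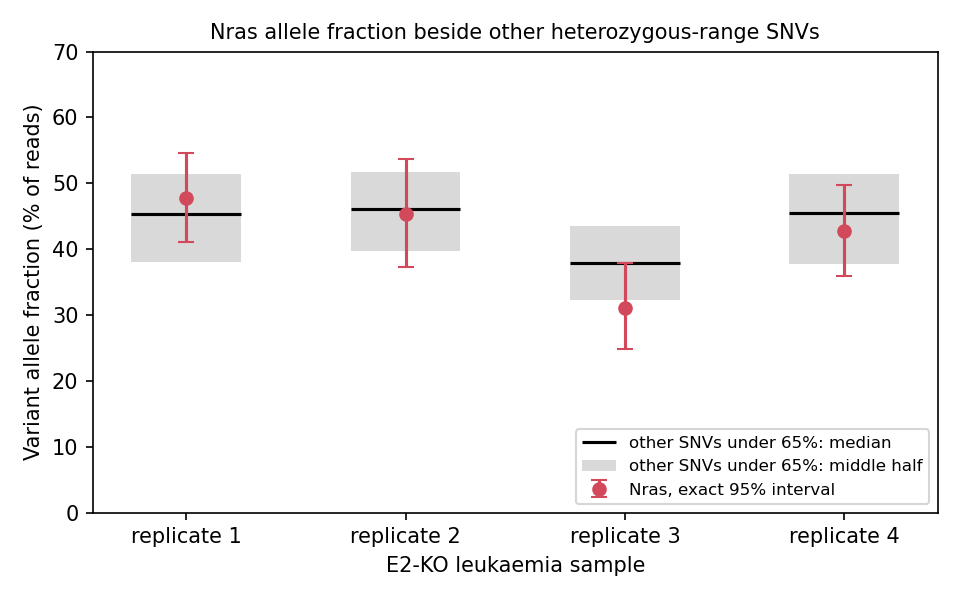
Nras allele fraction in percent of SpeedSeq reads for the 4 E2-KO samples (points, with exact 95% intervals), over the median (line) and the interquartile range (grey box) of the sample's other confident autosomal SNVs under 65% with a depth of at least 30. Nras sits inside the grey box in replicates 1, 2 and 4 and below it in replicate 3, at 31.1%.

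The Nras variant was in the heterozygous range throughout. Reads with the reference base made up 52.2%, 54.6%, 68.9% and 57.3% in replicates 1 to 4, so no sample had lost them. In reads of pairs of libraries, replicate 3 was lower than replicate 1 by 16.7 percentage points (Fisher's exact test, two-sided, p adjusted over 6 pairs = 0.00247), and lower than replicate 2 by 14.3 points (adjusted p = 0.0179 in the same exact test). Replicate 3 minus replicate 4 was -11.6 points (adjusted p = 0.031, exact). The other 3 pairs differed by 2.37 to 5.04 points and did not pass (adjusted p = 0.439 to 0.675, exact). These tests compare single libraries and no condition. Their p-values treat reads as independent and cover counting error only, so they are too small wherever reads share a molecule.

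Other SNVs of replicate 3 also had low fractions. Set against the median of the same sample's lower-range SNVs, the Nras fraction differed by 2.48, -0.76, -6.78 and -2.73 points in replicates 1 to 4. It stood at percentiles 60.7, 46.4, 20.7 and 39.5 of those SNVs. The mean difference was -1.95 ± 3.87 points (SD, n = 4), within the spread between samples (exact permutation test over the 16 sign patterns, two-sided p = 0.375, where the smallest p is that of 2 patterns in 16). It moved by over 1.5 times under 4 alternatives, to -3.42 without replicate 1, -0.34 without replicate 3, -0.49 against chromosome 3 alone and -0.85 against SNVs with a depth of at least 100. The upper bound of the Nras interval in replicate 3, 37.9%, was no higher than that sample's median.

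No second confident variant lay in Nras in any sample, where one under 20% in VarScan2 could not have passed. The single other listed call was a SpeedSeq call in replicate 1 at position 103062821, with 2 variant reads of 4. No confident SNV lay within 500 kb of the gene on either side in any sample, and the nearest was 2975 kb above it.

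Rit1, a RAS-related GTPase altered in some myeloid neoplasms, held 2 SNVs in its gene body from 88716842 to 88731048 on chromosome 3, 14.3 Mb below Nras. At position 88726187 a G-to-A change made up 14 of 29 reads in replicate 1 (48.3%, exact 95% interval 29.4 to 67.5) and 17 of 37 in replicate 2 (45.9%, 29.5 to 63.1). At position 88729080 a T-to-C change made up 17 of 37 reads in replicate 1 (45.9%) and 12 of 23 in replicate 2 (52.2%). Both sites were heterozygous-range in both samples, and neither caller listed them in replicate 3 or 4. Around them the samples split in the same way. Within 500 kb outside the gene there were 70 and 73 confident SNVs in replicates 1 and 2, with median fractions of 42.0% and 46.0%. Replicates 3 and 4 had 1 SNV each there. The Rit1 SNVs thus lay among many other variants of the samples that carried them, whereas Nras had none around it.

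Among the 5 regulators of RAS GTPases, Nf1 held variants in every sample and Rasa1, Rasa2, Sos1 and Spred1 held none. Nf1, whose product switches RAS off, spans 79339590 to 79581609 on chromosome 11. Its SNV, G to A at position 79547114, was the other site found in all 4 samples. It made up 30 of 74 reads in replicate 1 (40.5%, exact 95% interval 29.3 to 52.6), 35 of 66 in replicate 2 (53.0%, 40.3 to 65.4), 76 of 93 in replicate 3 (81.7%, 72.4 to 89.0) and 54 of 93 in replicate 4 (58.1%, 47.4 to 68.2). Replicate 3 was highest, and its interval overlapped none of the others. Its 81.7% was close to the 80.3% median of upper-range SNVs in that sample, while the other 3 samples were in the heterozygous range. The mean of the 4 was 58.3% ± 17.2 (SD, n = 4).

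This Nf1 call was the only upper-range call among the 25 in the 29 genes (4.0%), whereas 30.0% of all confident calls were upper-range. That count takes the SpeedSeq depth as the denominator. Over the reads assigned to either allele there were 3 upper-range calls, the others being the Cblb and Il7r deletions of replicate 3. Counted by gene, 1 of the 29 members (3.45%) had an upper-range call in any sample, against 10.1% of protein-coding genes. SpeedSeq wrote a heterozygous genotype for it in every sample, replicate 3 included. VarScan2 gave nearly the same fractions, 40.3%, 52.3%, 81.1% and 57.6%. The variant reads of this SNV came from both strands in all samples, with 22 forward and 54 reverse by SpeedSeq in replicate 3. The reverse strand held more of them in every sample. Few other SNVs lay near it: within 1 Mb there were none in replicate 1 and 1 in each of replicates 2, 3 and 4. The neighbour in replicate 3 had a fraction of 43.6%, in the heterozygous range, so the upper-range value was not seen at the 1 neighbouring site that could be compared.

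The 4 other Nf1 variants were 1-base length changes at 3 T runs. At the first run the deletion had 10 of 31 reads in replicate 2 (32.3%) and the insertion 10 of 34 in replicate 3 (29.4%). Every variant read of that insertion call was on the forward strand in both callers. Both alleles were also listed below the filters, the deletion in replicate 1 and the insertion in replicate 4, so all 4 samples had a call at this run. At the second run the deletion had 8 of 25 reads in replicate 2 (32.0%) and 10 of 29 in replicate 3 (34.5%), and was listed by VarScan2 in replicate 4. At the third run it had 7 of 25 reads in replicate 1 (28.0%) and 9 of 31 in replicate 4 (29.0%), all on the reverse strand. No Nf1 indel passed 34.5% of the SpeedSeq depth, or 44.0% in VarScan2, and which samples passed the filter differed from run to run.

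Zygosity could not be read from the indels in the same way as from the SNVs. At the runs the variant and reference reads together fell short of the SpeedSeq depth, and what the remaining reads carried was not determined. In replicate 2 the first Nf1 run had 10 variant and 6 reference reads in a depth of 31, which is 62.5% of the assigned reads. Cblb in replicate 3 had 9 variant and 2 reference reads (81.8% of the assigned reads), and Il7r had 11 and 4 (73.3%), so both passed 65% on this measure. SpeedSeq wrote a homozygous genotype at 3 of the 25 calls, all of them indels: the deletion and the insertion at the first Nf1 run and the Il7r deletion.

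**Figure D2:**
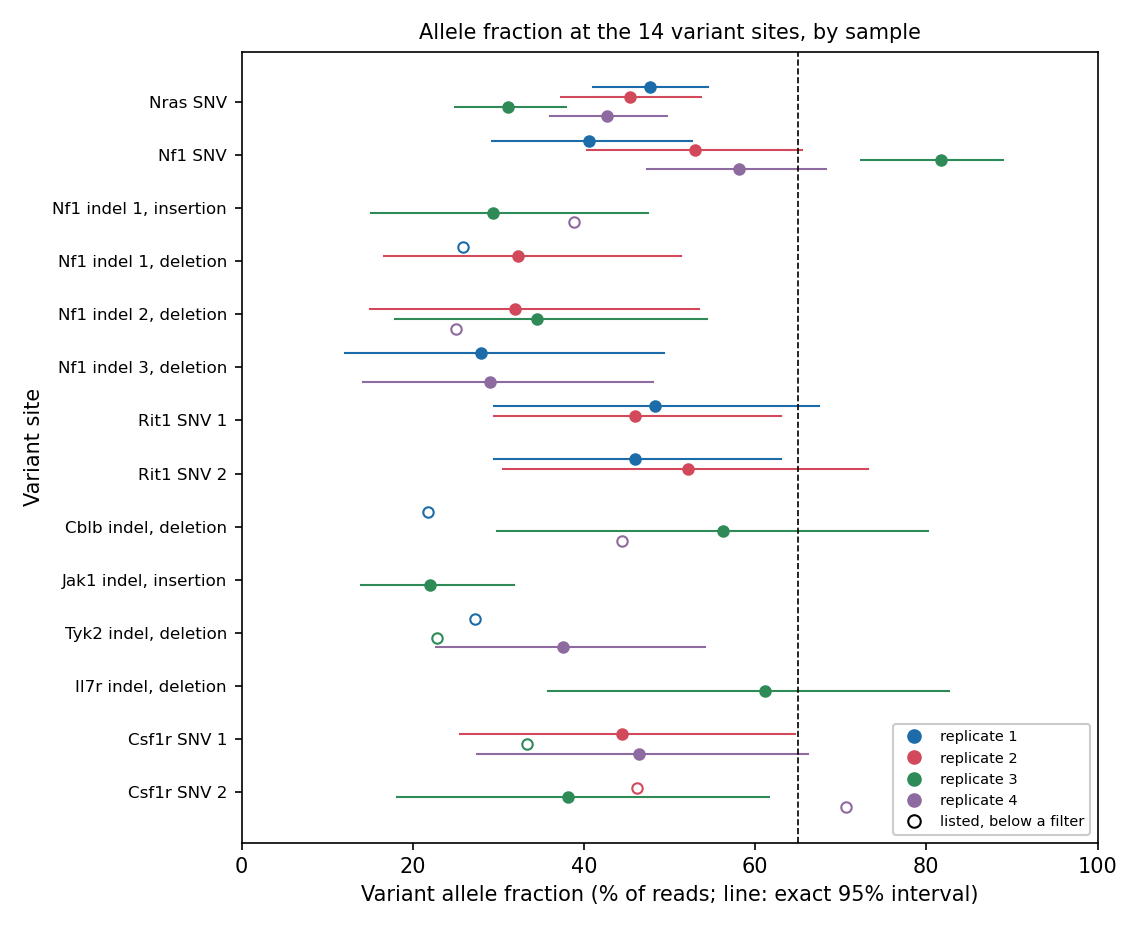
Allele fraction in percent of reads at the 14 sites, coloured by E2-KO replicate; filled points are confident calls with exact 95% intervals from SpeedSeq reads, open points are calls listed below a filter (VarScan2 reads where SpeedSeq listed none), and the dashed line marks 65%. The Nf1 SNV in replicate 3, at 81.7%, is the single confident call right of the line.

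Ptpn11, Cbl and Cblb relay or end receptor signals, Ptpn11 as a phosphatase that promotes RAS activation and the Cbl proteins as ubiquitin ligases that remove active receptors. Ptpn11 and Cbl held no confident variant. Cblb held 1, the deletion of a G from the run of 13, with 9 of 16 reads in replicate 3 (56.3%, exact 95% interval 29.9 to 80.2), or 81.8% of the 11 assigned reads. The same deletion was listed below the filters in replicates 1 and 4, so its call in a single sample does not show that it was particular to that sample. None of the 3 kinases downstream of RAS, Braf, Map2k1 and Map2k2, held a confident variant.

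Of the 4 Janus kinases, Jak1 and Tyk2 each held 1 indel and Jak2 and Jak3 held none. The Jak1 variant was an insertion of 13 bases at position 101163638 of chromosome 4, inside a gene body from 101151974 to 101265282. It did not pass at a quality score of at least 100 or a fraction of at least 25%. It had 20 variant and 71 reference reads in replicate 3 (22.0%, exact 95% interval 13.97 to 31.9) and was listed by neither caller in the other 3 samples. VarScan2 gave 22.5% of 89 reads. Of the 20 variant reads 18 were on the forward strand and 2 on the reverse strand, at a mean mapping quality of 60 and a SpeedSeq quality score of 76.2. Its fraction was below the 37.9% median of lower-range SNVs in that sample, and the interval lay wholly below it. That median holds SNVs alone. No median of indels was computed, and whether a 13-base insertion is counted as fully as an SNV was not tested. The lower fraction therefore does not show what share of cells carried it. VarScan2 lists nothing under 20%, so a fraction this close to that limit could not have been seen much lower.

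The Tyk2 deletion in the run of 13 C had 15 of 40 reads in replicate 4 (37.5%, exact 95% interval 22.7 to 54.2). It was listed below the filters in replicates 1 and 3, with 9 of 33 VarScan2 reads and 8 of 35 SpeedSeq reads. The transcription factors Stat3, Stat5a and Stat5b, which carry the signal of these kinases to the nucleus, held no confident variant.

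Of the 5 receptors, Csf1r and Il7r held calls and Csf2rb, Pdgfra and Pdgfrb held none. Csf1r, the receptor for macrophage colony-stimulating factor on chromosome 18, had T-to-G changes at position 61124953 in replicate 2 (12 of 27 reads, 44.4%) and replicate 4 (13 of 28, 46.4%), and at position 61124959 in replicate 3 (8 of 21, 38.1%). All 33 variant reads of these 3 calls were on the reverse strand. The mean mapping quality of the variant reads was 48.9, 39.8 and 37.5, against 60 at every other confident member call. Further T-to-G calls were listed at 61124965 and 61124971 without passing, so the 4 positions were spaced at intervals of 6 bases, and replicate 1 had none of them. Over the whole genome 15.2% of confident SNV calls had their variant reads on 1 strand. The part of read alignment in these calls was not tested.

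Il7r, the receptor for interleukin 7, held its deletion at position 9529745 of chromosome 15, 196 bases inside a gene body from 9506159 to 9529941 on the minus strand. SpeedSeq counted 11 variant reads in a depth of 18 in replicate 3 (61.1%, exact 95% interval 35.7 to 82.7), while VarScan2 counted 11 of 38 (28.9%, 15.4 to 45.9). The callers gave the same number of variant reads and differed in the reference reads, and the zygosity range of this call depends on the caller. Neither listed it in the other samples, and it did not pass at a depth of at least 20. The inhibitors Sh2b3 and Socs1, which restrain cytokine receptor and Janus kinase signalling, held no confident variant.

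**Figure D3:**
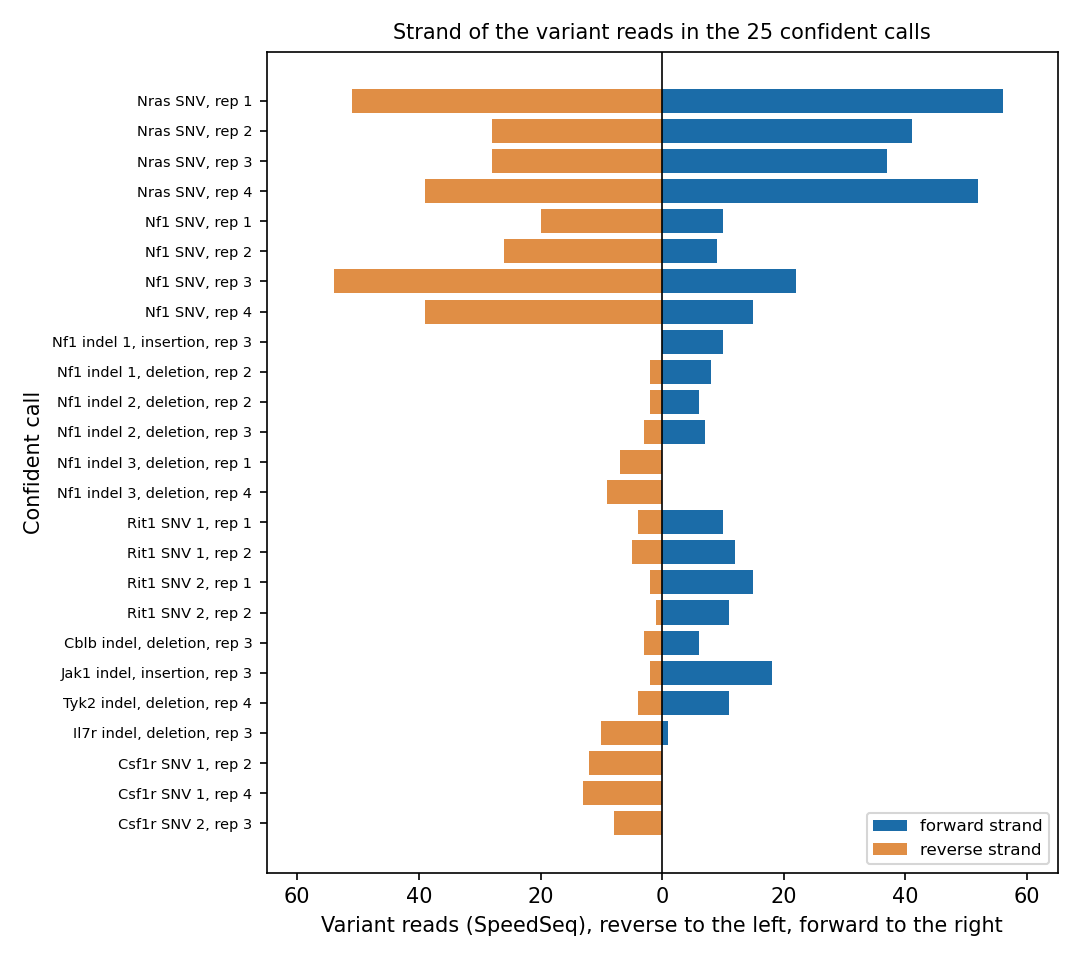
SpeedSeq variant reads of each of the 25 confident calls, with forward-strand reads to the right and reverse-strand reads to the left of 0. Nras and the Nf1 SNV have reads on both sides in every replicate, whereas the 3 Csf1r calls, with 33 reads in all, extend to the left alone.

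Of the 14 sites, 2 were confident in all 4 samples, none in 3, 5 in 2 and 7 in 1. The sites confident in a single sample were 6 of the 8 indel sites and 1 of the 6 SNV sites, where 47.6% of all confident indel sites and 32.3% of all confident SNV sites were. In comparison, 17.4% of all confident sites were found in 4 samples and 34.4% in 1. By gene, Nras and Nf1 were the 2 members with a call in every sample (6.90%), against 5.04% of protein-coding genes. Of these 2, Nras is the engineered gene, so its part in that share was set by the design. Of the 7 sites confident in a single sample, 5 were in replicate 3. The positions of 5 of the 7 were also listed in other samples below a filter, and the Jak1 insertion and the Il7r deletion, both in replicate 3, were the 2 listed nowhere else. Beside its Nras SNV, then, replicate 1 had confident calls in Nf1 and Rit1, replicate 2 in Nf1, Rit1 and Csf1r, replicate 3 in Nf1, Cblb, Jak1, Il7r and Csf1r, and replicate 4 in Nf1, Tyk2 and Csf1r.

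Most calls listed in the members did not pass. The callers listed 155 calls in the 29 gene bodies, of which 130 were not confident. Of these, 88 were SpeedSeq calls alone at a depth under 10, 33 were VarScan2 calls alone and 9 were listed by both callers below a filter. By VarScan2 alone, 7 of the 21 members without a confident variant held calls: Sos1 in replicates 1, 3 and 4, Pdgfra in replicates 1 and 2, Rasa1 in replicates 2 and 4, Map2k1 in replicate 3, and Braf, Ptpn11 and Stat3 in replicate 2. The mean number of genes per sample was then 8.25 in place of 4.25. Map2k2, Rras and Socs1 had no listed call at all in any sample. In the promoter table, 26 of the members matched with 30 windows of 300 bases each, from 250 before to 50 after a gene start. Neither caller listed a variant in any of them. Whether the exome capture reached these windows was not determined, so their lack of calls says little.

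Members without a confident variant lay in different surroundings. Within 500 kb outside the gene, 9 members had at least 10 confident SNVs in some sample, and 7 of these 9 held no confident call inside the gene. Cbl had 140, 137 and 139 such SNVs in replicates 1 to 3 and none in replicate 4, with the nearest on each side 11.3 to 17.6 kb from the gene in the first 3. Hras, a gene of 4086 bases, had 109, 111, 107 and 19. The nearest lay 11.4 to 11.5 kb below Hras but 444.5 kb above it. Both genes were free of confident calls although their surroundings were dense with them in replicates 1 to 3. The callers listed 11 calls in Cbl and 1 in Hras that did not pass.

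The fractions of these surrounding SNVs also differed between samples. Around Pdgfra, the receptor for platelet-derived growth factor, 17, 20 and 21 SNVs had a median of 100% in replicates 1, 2 and 4, and 24 had a median of 37.2% in replicate 3. Around Sos1, the 12 SNVs had a median of 100% in replicate 2, 13 had a median of 53.2% in replicate 4, and replicates 1 and 3 had none. Around Jak1, there were 17 SNVs in replicate 2 (median 45.5%), 16 in replicate 3 (median 37.7%) and none in the other samples. The Jak1 insertion of replicate 3, at 22.0%, was lower than that median, which again is one of SNVs and not of indels. By contrast Nras, Cblb, Rasa1, Spred1, Tyk2 and Il7r had no confident SNV within 500 kb in any sample.

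**Figure D4:**
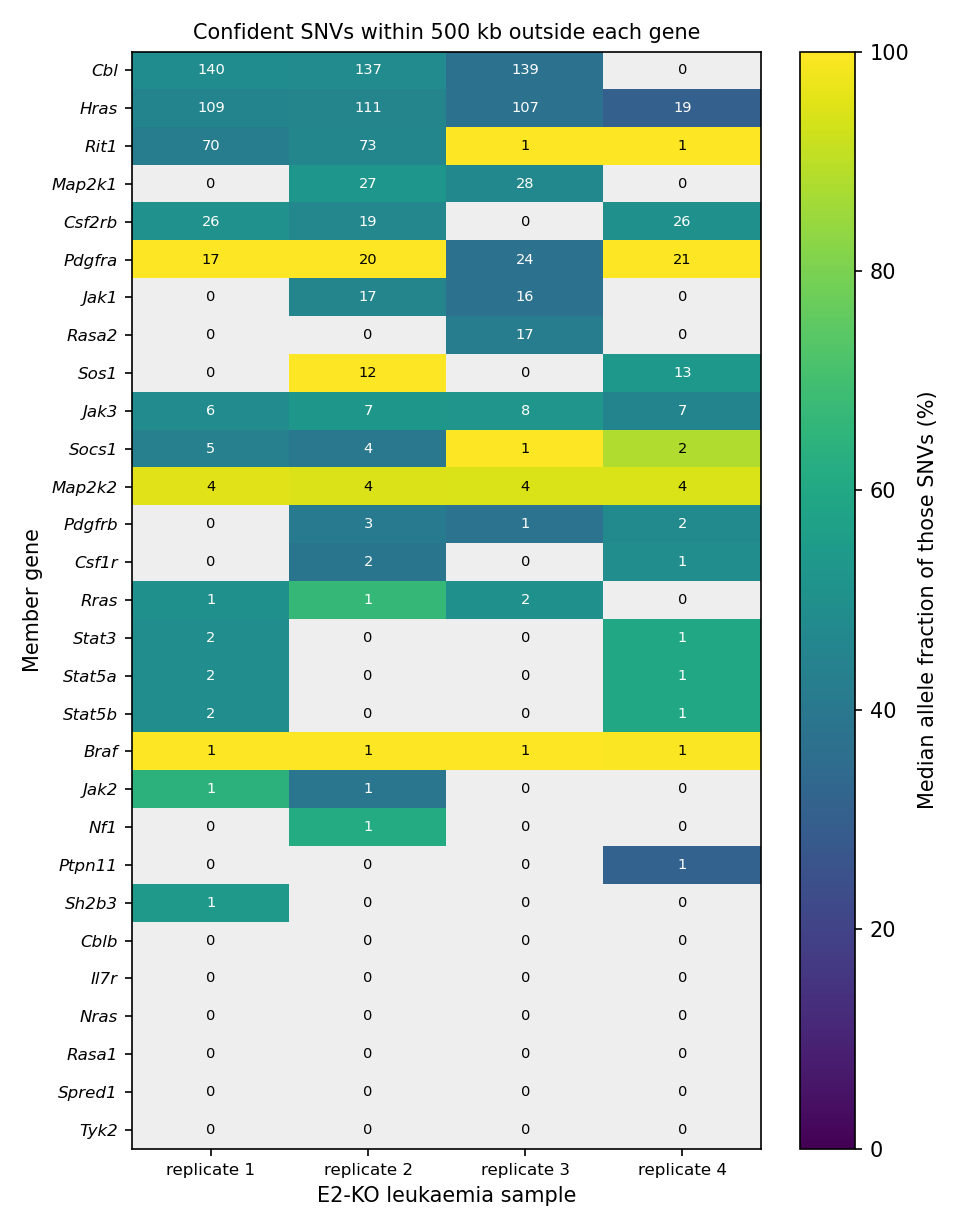
Number of confident SNVs within 500 kb outside each of the 29 genes (printed) in the 4 E2-KO samples, coloured by their median allele fraction in percent, with grey for none. Cbl and Hras have the densest surroundings, at up to 140 and 111 SNVs, and Nras has none in all 4 samples.

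The wider pathway was read from a list of 64 further genes, 35 of RAS-MAPK signalling and 29 of JAK-STAT signalling. Of these, 8 (22.9%) and 7 (24.1%) had a confident variant in some sample, beside the 23.7% of all protein-coding genes. The 6 with the most sites were the exchange factor Rasgrf1, the receptor subunit Crlf2, the scaffold Ksr2, the STAT-induced inhibitor Cish, the interleukin 6 receptor Il6ra and the exchange factor Rasgrf2. Rasgrf1 had 23 sites and Cish 4, all in replicate 3 alone, at median fractions of 38.9% and 35.5%, near the lower-range median of that sample. Il6ra had 4 sites in replicates 1 and 2 alone, at medians of 44.6% and 43.1%, the same pair of samples that carried the Rit1 SNVs on the same chromosome. Crlf2 had 8 sites and Ksr2 had 7, in replicates 1 to 3 and none in replicate 4, and Rasgrf2 had 4 in replicates 1, 3 and 4. Upper-range calls fell in 7 of the 64 genes (10.9%), beside 10.1% of all protein-coding genes. Mapk3, the kinase ERK1, was chosen after its values were seen, as the only gene of the list with a call in all 4 samples. Its 1 site was upper-range in each, at 100%, 100%, 69.5% and 100%. No confident variant of this list was examined for its effect on the protein.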

How the data were processed

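Exomes of 4 samples were captured with an Agilent SureSelect mouse kit, per the labels' protocols. SpeedSeq variant files were made with freeBayes 0.9.21 on mm10 for each sample separately, per the file headers, and their deposited quality column is a Phred-scaled score. The other deposited columns hold whole reads per allele. VarScan2 tables give reads per allele and strand, per the file headers. The sources used here do not give its version, the aligner or duplicate handling. VarScan2 listed no coverage under 8, under 3 variant reads or under 20%. The builds mm10 and GRCm38 are named in the submitters' processing notes.

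SpeedSeq alleles were trimmed of shared bases and joined with VarScan2 by position and alleles. Allele fraction is variant reads over SpeedSeq depth, or over assigned reads in VarScan2. Calls were placed in gene bodies of RefSeq GRCm38.p6; indel haplotypes come from the deposited SpeedSeq files. Python 3.11.15, pandas 2.3.3 and scipy 1.17.1 were used, and the join and filters were tested on simulated data. Named were Nras, all members with a confident variant, and the 6 further pathway genes with the most sites. Alternatives varied caller, depth, reads, fraction, quality, strand, allele splitting and samples. The members and lists were chosen with earlier results of these data known. The labels do not say whether the samples are separate animals, so spreads may be technical in part.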

Additional observations from a re-analysis of the deposited data

Results flagged for a closer look

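Of 9 per-sample quantities, 2 had 1 sample far from the other 3, and both were levels of replicate 3 over the whole genome. Its lower-range median was 37.9%, a gap that chance gives in about 1 of 20 groups. Its upper-range median was 80.3%, while the other 3 samples were tied at the ceiling of 100%, so that any lower value would have stood apart and the share given by chance does not apply. The Nras fraction, the Nf1 SNV fraction and the counts of member calls had no such sample.

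Outside the confident calls, 8 sites in member genes had 4 or more variant reads in at least 2 samples and never passed. Variant reads are the larger count of the callers, summed over samples. The deletion of a T in Cblb at position 52199652 had 27 variant reads in SpeedSeq, and in all 4 samples every read was variant (8 of 8, 7 of 7, 7 of 7 and 5 of 5). It missed the depth minimum in each. The T-to-G changes in Csf1r at 61124965 and 61124971 had 25 and 20 variant reads in replicates 2 to 4, all on the reverse strand. The A-to-G change in Sos1 at 80463973 had 13 variant reads in replicates 1, 3 and 4, all on the reverse strand and listed by VarScan2 alone.

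The other sites were indels in 2 samples each. Map2k1 at 64214309 had 11 variant reads and Rasa1 at 85246511 had 14, all on the forward strand. Nf1 at 79372347 had 11, all on the reverse strand, and Pdgfra at 75182953 had 17, of which VarScan2 placed 16 on the forward strand. Their cause was not tested.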

How the results depend on the processing

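Of 71 recomputed values, 61 were scored as unchanged and none changed sign. Counts had to stay within 1.5 times the reported count, and the mean Nras fraction within 1 SD. Some outcomes were fixed in advance. Leaving out 1 replicate cannot move the mean Nras fraction by 1 SD. With a single upper-range call, leaving out a replicate without it could only be scored as unchanged. Those values are no evidence of stability. For the difference of Nras from the lower-range median only the sign had to hold. Some of its 8 alternatives moved by over 1.5 times, as given above. VarScan2 alone moved the mean number of member genes with a variant from 4.25 to 8.25, the sites from 14 to 30 and the single-sample sites from 7 to 14, whereas SpeedSeq alone gave the same counts as both callers. A quality score of at least 100 left 9 sites. It left out Jak1, Csf1r, the insertion at the first Nf1 run and the deletion at the third. A fraction of at least 25% left out Jak1. A depth of at least 20 left out Cblb, Il7r and the Csf1r site at 61124959. Variant reads on both strands left 10 sites, without Csf1r and the same Nf1 insertion and deletion. Nras, Nf1, Rit1 and Tyk2 held calls under each of these filters. Leaving out each replicate in turn gave 9 to 14 sites, 3 to 10 single-sample sites and 0 to 0.33 upper-range calls per sample, in each case lowest without replicate 3. The genes per sample were then 3.67 to 4.67, the sites found in every sample 2 throughout, the mean Nras fraction 39.7% to 45.3% and its difference from the lower-range median -3.42 to -0.34 points. Only 2 single-sample sites were listed by neither caller elsewhere. With assigned reads as the denominator, chosen after seeing the data, upper-range calls rose from 0.25 to 0.75 per sample, through Il7r and Cblb. Counting calls of any quality gave 1 further change in Nras. No paired analysis was possible because the samples form 1 group. Depth limits the indels, called at 16 to 91 reads, more than Nras at 152 to 224.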
